A study of Mus musculus with 4 samples.

Results

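The genes described here are 54 genes of the cell cycle and of mitosis, chosen by name from knowledge of their function and read on arrays of lung RNA from A/J mice given bleomycin. Of the 54, 48 had a probe carrying their symbol and 35 were measured on 3 or 4 of the 4 arrays, among 8384 genes tested in all. Each array set amplified lung RNA of 1 of 4 bleomycin-treated mice of the inbred strain A/J beside a single pool of amplified lung RNA, which came from control animals of that strain. Both sides thus share the strain, the organ and the amplification step, and no transgene or deleted allele is named in the labels. Bleomycin is a drug that breaks DNA and is used to injure the lung in rodents. The labels give no dose, route, time after treatment or age. They do not state how many mice went into the pool either, so the pool counts as 1 control sample and the spread between control mice is unknown.

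A dividing cell copies its DNA in S phase and separates the copies in mitosis. Cyclins and their kinases start each step, the origin proteins and the Mcm helicase open the DNA for replication, and the spindle, its kinesins and a checkpoint share out the chromosomes. Many of these genes are transcribed mainly while cells divide, and the adult lung has few dividing cells, which become more frequent during repair after injury. DNA damage can halt the cycle through p53 and its target Cdkn1a, a kinase inhibitor.

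Every value below is a log ratio between a treated mouse and the pool, read as log2 and centred on the median of its array. Which RNA is on top is stated nowhere. The titles name the treated mouse before the pool, and by that order alone a value above 0 would be higher in the treated lung. Genes are therefore described by their side of 0, and every sign turns if the pool is on top. That logarithm's base is inferred, and under another base all sizes would change by 1 common factor while the tests would not. In lung RNA, a difference in the number of dividing cells and a difference in a transcript per cell cannot be told apart.

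Of the 35 measured cell cycle genes, 3 passed the test of the mean against 0: Hmgb2 above 0, and the cytokinesis gene Racgap1 and the mitotic kinesin gene Kif2c below 0. The test was limma's, with Benjamini-Hochberg adjustment over all 8384 genes and a threshold of 0.05. Over all genes, 12.5% passed, 7.69% above 0 and 4.81% below 0, and 8.57% of the cell cycle genes, a share near that of all genes. At an unadjusted p under 0.05 there were 11 of the 35, 2 above and 9 below 0. Of all 8384 genes, 31.8% had such a p, 1510 of them above and 1154 below 0. Means lay below 0 for 29 of the 35 and for 49.7% of all genes, and the median of the means was -0.17, against 0.00 over all genes. The median was -0.09 without mouse 2, -0.11 without mouse 1 and -0.28 without mouse 3. The means ran from -0.74 to 0.54, and 13 of the 35 genes were below 0 on every array with a value, against 22.3% of all genes. The sign was the same on every such array for 16 of the 35 and for 46.7% of all genes.

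**Figure D1:**
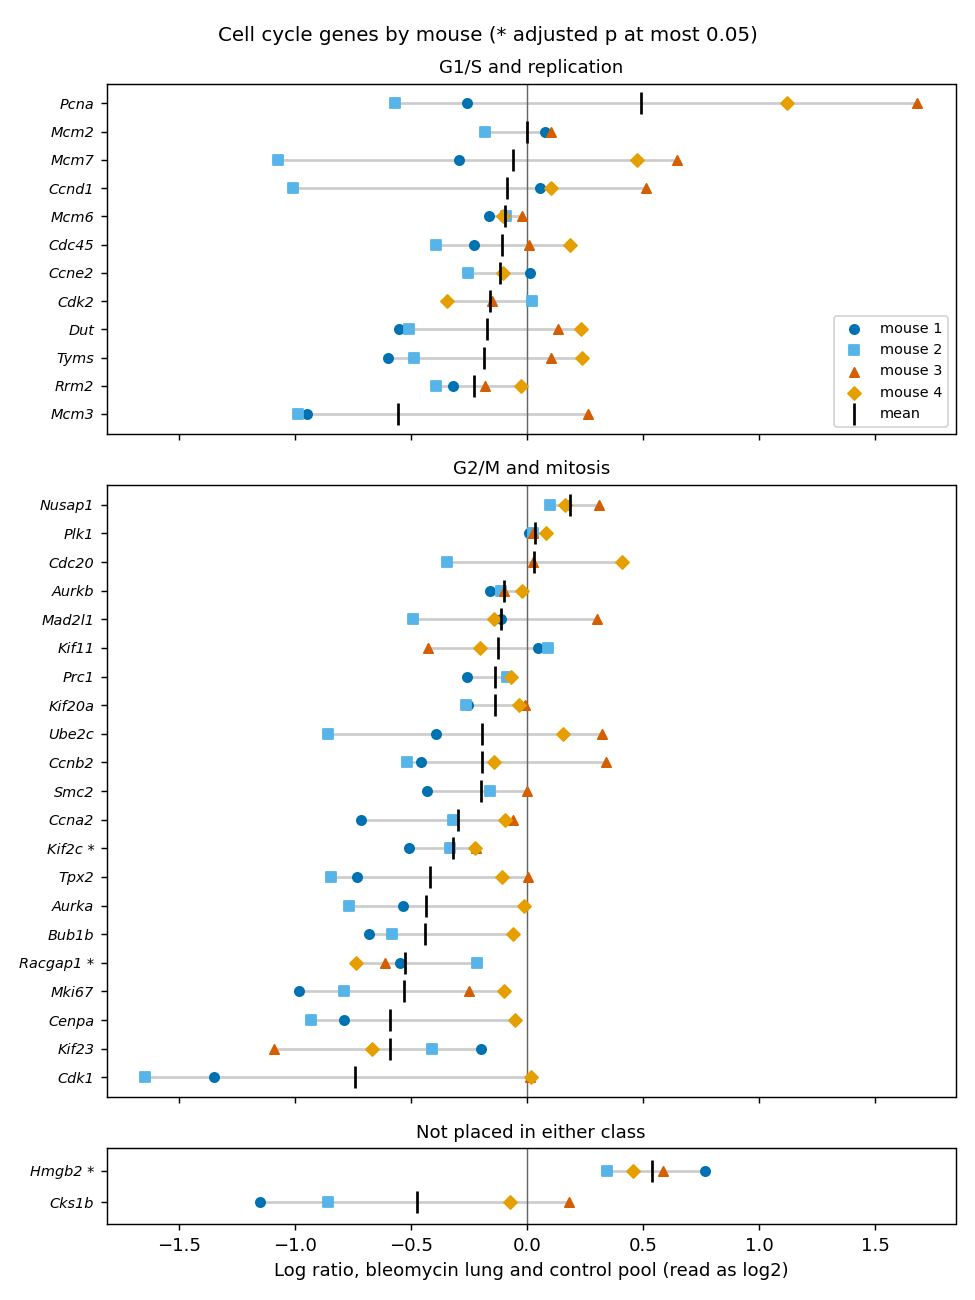
Log ratio (horizontal axis, read as log2) of each of the 35 measured cell cycle genes in mice 1 to 4 (coloured symbols), with the mean (black bar) and the range (grey line). Asterisks mark Hmgb2, Racgap1 and Kif2c, whose adjusted p was at most 0.05. The symbols of mice 1 and 2 lie apart from those of mice 3 and 4 for Pcna, Cdk1 and Mcm7, whereas all 4 lie close together for Plk1 and Aurkb.

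Hmgb2 encodes a chromatin protein of the high mobility group that bends DNA and is abundant in dividing cells. Its log ratios were 0.77, 0.34, 0.59 and 0.46 in mice 1 to 4, with a mean of 0.54 ± 0.18 (SD, n = 4; limma adjusted p = 0.0219). All 4 mice lay above 0. Racgap1 encodes a subunit of centralspindlin, the complex that bundles microtubules between the separating chromosomes and places the cleavage furrow. Its log ratios were -0.55, -0.22, -0.61 and -0.74 in mice 1 to 4, with a mean of -0.53 ± 0.22 (SD, n = 4; limma adjusted p = 0.0294). All 4 mice lay below 0, mouse 2 closest to it. Kif2c encodes a kinesin that takes microtubules apart at the centromere. Its log ratios were -0.51, -0.33, -0.22 and -0.22, with a mean of -0.32 ± 0.13 (SD, n = 4; limma adjusted p = 0.0499), at the edge of the threshold.

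The call of Kif2c was lost whichever mouse was left out (limma adjusted p = 0.102 to 0.125). Those of Hmgb2 and Racgap1 were kept only without mouse 2. Each fit on 3 mice also called a smaller share of all genes than the fit on 4. Without mouse 1, 3 or 4, 0 of the 27, 30 and 28 cell cycle genes with a value in all 3 remaining mice passed limma, against 4.48%, 3.95% and 4.74% of all genes. At an unadjusted p under 0.05 there were 4, 13 and 8, against 28.6%, 27.4% and 27.5% of all genes. Without mouse 2, when 8.42% of all genes passed, of 25 such cell cycle genes only Hmgb2 (adjusted p = 0.0359) and Racgap1 (adjusted p = 0.0261) did. With mice 1 and 2, and mice 3 and 4, as a random block, since their arrays resembled each other, 0 of the 35 passed, with 8 at an unadjusted p under 0.05, while 4.79% of all genes passed and 25.5% had such an unadjusted p. The limma adjusted p with this block was 0.0555 for Hmgb2, 0.0597 for Racgap1 and 0.0965 for Kif2c.

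The promoters of the 3 called genes and of Cdk1 and Pcna, the genes with the widest spread between mice among the mitotic and the replication genes, are shown because promoters of mitotic genes often carry a cell cycle homology region (CHR, searched as TTTGAA) and CCAAT boxes (CCAAT). Genes of the G1/S step more often carry E2F sites, searched as TTCCCGC and TTGGCGC. Each sequence is 250 bases before to 50 bases after the start of the gene, 5′ to 3′ on the strand of the gene, from RefSeq on GRCm38.p6. Capitals mark a match to any of these letters on either strand.
Racgap1, chr15:99651607-99651906, minus strand: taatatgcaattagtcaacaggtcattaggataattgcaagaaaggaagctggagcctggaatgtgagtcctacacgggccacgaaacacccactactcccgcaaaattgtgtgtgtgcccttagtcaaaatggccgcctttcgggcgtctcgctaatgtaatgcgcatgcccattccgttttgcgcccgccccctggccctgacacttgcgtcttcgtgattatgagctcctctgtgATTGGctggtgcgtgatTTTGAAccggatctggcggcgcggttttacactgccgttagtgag
Kif2c, chr4:117178723-117179022, minus strand: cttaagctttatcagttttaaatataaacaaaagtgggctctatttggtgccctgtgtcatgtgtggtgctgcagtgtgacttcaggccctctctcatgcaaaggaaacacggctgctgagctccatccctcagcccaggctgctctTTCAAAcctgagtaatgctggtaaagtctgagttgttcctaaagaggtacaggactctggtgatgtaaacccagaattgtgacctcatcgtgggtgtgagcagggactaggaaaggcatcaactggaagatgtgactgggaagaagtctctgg
Hmgb2, chr8:57511593-57511892, plus strand: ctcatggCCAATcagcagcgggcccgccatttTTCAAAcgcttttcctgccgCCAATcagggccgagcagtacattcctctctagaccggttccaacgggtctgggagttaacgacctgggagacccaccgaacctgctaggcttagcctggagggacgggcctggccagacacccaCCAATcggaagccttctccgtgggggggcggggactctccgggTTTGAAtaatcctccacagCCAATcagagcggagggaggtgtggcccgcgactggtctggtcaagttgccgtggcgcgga
Cdk1, chr10:69352863-69353162, minus strand: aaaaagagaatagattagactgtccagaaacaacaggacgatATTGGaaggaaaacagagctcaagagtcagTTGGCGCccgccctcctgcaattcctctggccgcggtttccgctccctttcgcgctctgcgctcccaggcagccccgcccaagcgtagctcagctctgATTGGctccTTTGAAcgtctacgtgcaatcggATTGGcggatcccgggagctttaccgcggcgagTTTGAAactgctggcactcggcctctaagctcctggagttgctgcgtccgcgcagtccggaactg
Pcna, chr2:132253131-132253430, minus strand: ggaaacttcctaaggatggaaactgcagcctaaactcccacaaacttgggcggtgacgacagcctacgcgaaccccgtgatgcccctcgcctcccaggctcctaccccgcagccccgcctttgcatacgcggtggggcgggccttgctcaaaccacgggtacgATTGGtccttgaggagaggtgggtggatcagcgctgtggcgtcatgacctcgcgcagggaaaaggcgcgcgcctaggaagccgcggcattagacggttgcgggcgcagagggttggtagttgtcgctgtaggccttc

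Both Cdk1 and Hmgb2 hold 2 CHR matches, Racgap1 and Kif2c hold 1 each, and Pcna holds 0 CHR matches and 1 CCAAT box. The E2F letters occur among these 5 only in Cdk1. Promoters were listed for 29 of the 35 measured genes, and the first one listed was read for a gene with several. A CHR match was found in 15 of 17 G2/M promoters and in 2 of 10 G1/S promoters, against 12.8% of the 6671 promoters of all genes tested. A CCAAT box was found in 14 of the 17 and in 8 of the 10, against 39.1% of all. The E2F letters were found in 2 of the 17 (Cdk1 and Mki67) and in 4 of the 10 (Cdk2, Mcm3, Mcm6 and Mcm7), against 11.1% of all. A CHR match and a CCAAT box stood together in 14 of the 17 G2/M promoters and in 5.2% of all. The members were chosen for their known function, so these shares describe the list, and a match is not a proven site.

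The genes of the G1/S step and of replication were set beside those of G2/M and mitosis. Of 12 measured G1/S genes, 0 passed limma above or below 0, with 1 at an unadjusted p under 0.05 (Rrm2). Of 21 measured G2/M genes, 2 passed below 0 and 0 above, or 9.52%, with 9 at an unadjusted p under 0.05. Over all genes, 12.5% passed, 4.81% below 0, and 31.8% had such an unadjusted p. The calls are too few to tell the classes apart. Means lay below 0 for 10 of the 12 and for 18 of the 21, against 49.7% of all genes. The median of the means was -0.11 for G1/S genes and -0.20 for G2/M genes, a difference of 0.09. By mouse the difference between the medians was 0.18, -0.10, 0.10 and 0.21 in mice 1 to 4, so its sign was not the same in all mice. It was 0.16 without mouse 2, 0.04 without mouse 4 and 0.17 with means in place of medians.

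The class medians differed more between mice than between classes. The G1/S median was -0.26, -0.44, 0.10 and 0.14 in mice 1 to 4, and the G2/M median was -0.44, -0.35, 0.00 and -0.07. Both medians were thus well below 0 in mice 1 and 2 and near or above 0 in mice 3 and 4. Over all genes the medians stayed between 0.00 and 0.01 in the 4 mice. In mice 1 and 2, 26 of 33 and 30 of 35 cell cycle genes lay below 0, and in mice 3 and 4, 11 of 30 and 20 of 32 did. Of all genes tested, 50.1%, 49.6%, 48.2% and 47.7% lay below 0 in mice 1 to 4.

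The same arrays also differed in cell markers. Over all genes, 7.69% passed limma above 0 and 4.81% below, and 1 call in a list of 4 to 7 genes is too few to set against these shares. Of 15 macrophage symbols on a list, some of them older and newer names of a gene, 6 were measured. Of these 1 passed limma above 0 (Mrc1) and 0 below, and their median was -0.63, -0.82, -0.23 and 0.16 in mice 1 to 4. The complement gene C1qb had log ratios of -1.38, -1.70, -0.40 and -0.33, and Marco, a scavenger receptor gene of alveolar macrophages, had -1.23, -1.47, 0.33 and 0.41. The integrin gene Itgax had -0.32, -0.33, -0.56 and -0.04, and the lysosomal gene Cd68 had 0.01, -0.25, -0.23 and 0.21. C1qb and Marco were thus lowest in mice 1 and 2, and Itgax and Cd68 were not. C1qa had -0.633, -1.305 and 0.105 in mice 1, 2 and 4, so that mice 1 and 2 were again the lower ones. Mrc1 was above 0 in mice 2, 3 and 4. Of 8 endothelial genes, 6 passed limma above 0 and 0 below, with medians of 0.98, 0.91, 0.53 and 0.63, higher in mice 1 and 2. Most of the single genes did not share this split. Only Tie1 (0.945, 1.225, 0.085 and 0.112) was higher in both mice 1 and 2 than in mice 3 and 4. Cldn5 was highest in mouse 3 (1.211), and Ramp2 was lowest in mouse 2 (0.472). Below 0, 5 of 12 genes of the striated muscle list, 3 of 4 fat cell genes and 2 of 5 neutrophil genes passed limma, and 0 passed above. All marker lists were chosen with earlier results of these data known, so these counts describe the lists and are not independent evidence. The muscle medians were -2.78, -0.54, -2.45 and -1.56, and the fat cell medians -1.95, -0.12, -2.81 and -2.12. The neutrophil medians were -0.45, -0.07, -0.52 and -0.51. Each of these medians was closest to 0 in mouse 2, but single genes did not all follow them. In mouse 2, 8 of 12 muscle genes lay below 0, 6 of them by more than 0.5. Tnnt3 had -5.131, -4.515, 0.097 and -1.559 in mice 1 to 4, and Acta1 had -2.871, -2.325, -0.163 and -0.896. Nppb, by contrast, had -2.681, -0.433, -3.379 and -1.989. The called genes Cox7a1 (-2.631, -0.645, -3.519 and -1.839) and Cox8b (-2.881, -0.305, -3.399 and -1.999) were also closest to 0 in mouse 2 and lowest in mouse 3. The same held for Ucp1 of the fat cell list (-2.061, -0.058, -3.429 and -2.029). Which cells Cox7a1 and Cox8b reflect here was not tested. The 2 called neutrophil genes, S100a8 (-1.945) and S100a9 (-1.495), were also far below 0 in mouse 2. In each of the remaining lists, of T and B cells (7 genes), fibroblasts (6), alveolar type II cells (6) and erythroid cells (4), 1 gene passed above 0 and 0 below. Their medians lay between -0.05 and 0.68 in the 4 mice. The part of these cells in the cell cycle values was not tested.

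**Figure D2:**
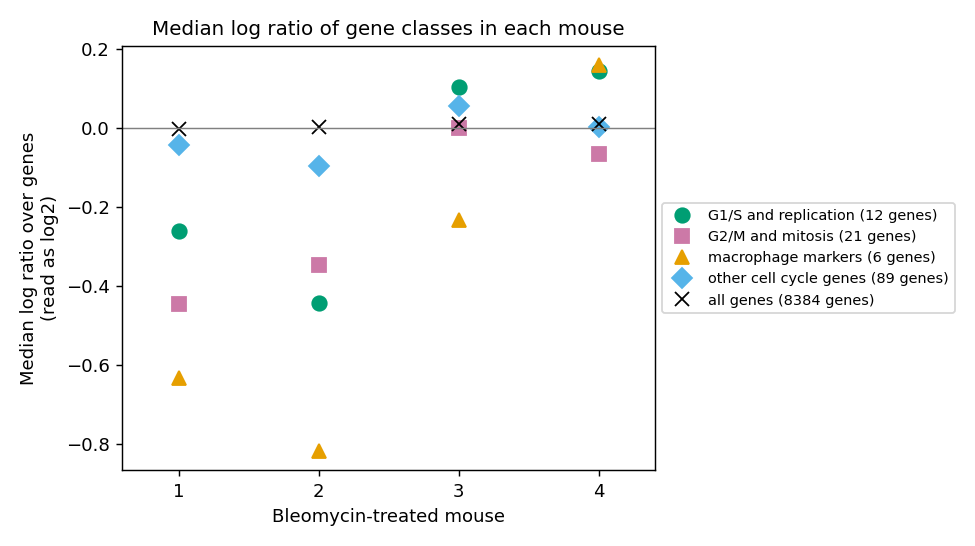
Median log ratio over genes (vertical axis, read as log2) in each bleomycin-treated mouse (horizontal axis) for G1/S genes, G2/M genes, other cell cycle genes, macrophage markers and all genes tested. The G1/S and G2/M medians lie between -0.44 and -0.26 in mice 1 and 2 and between -0.07 and 0.14 in mice 3 and 4. The other marker lists are not drawn, among them the endothelial one, whose medians also differed between these pairs of mice, though most of its single genes did not share this split.

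The arrays of mice 1 and 2 and those of mice 3 and 4 were alike over all spots, and among cell cycle genes the other pairs of mice had little likeness. Across the spots measured on both arrays, Pearson's r was 0.73 between mice 1 and 2, 0.86 between mice 3 and 4 and 0.45 to 0.57 between the other pairs of mice. Across cell cycle genes, r was 0.73 between mice 1 and 2 (33 genes) and 0.87 between mice 3 and 4 (27 genes). It was 0.16, 0.21, -0.20 and -0.12 for mice 1 and 3, 1 and 4, 2 and 3, and 2 and 4, over 28, 30, 30 and 32 genes. These are correlations across genes, which are not independent replicates, and all arrays share the pool.

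Among the G1/S cyclins and their kinase, Ccnd1, which encodes the cyclin that answers growth signals, had log ratios of 0.05, -1.01, 0.51 and 0.10 in mice 1 to 4. Its mean was -0.09 ± 0.65 (SD, n = 4; limma adjusted p = 0.836), with mouse 2 alone below 0. Ccne2, for a cyclin that drives entry into S phase, had 0.01, -0.26 and -0.10 in mice 1, 2 and 4. Its partner kinase gene Cdk2 had 0.02, -0.15 and -0.35 in mice 2, 3 and 4. Both lay within 0.35 of 0 in every mouse measured. Ccne1, the other cyclin of this step, had a value in mice 1 and 2 only, 0.15 and 0.21.

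The replicative helicase is a ring of the proteins Mcm2 to Mcm7. Mcm3 had log ratios of -0.95, -0.99 and 0.26 in mice 1, 2 and 3, with a mean of -0.56 ± 0.71 (SD, n = 3; limma adjusted p = 0.237). Mcm7 had -0.29, -1.08, 0.65 and 0.48 in mice 1 to 4, with a mean of -0.06 ± 0.79 (SD, n = 4; limma adjusted p = 0.905). For both genes, mice 1 and 2 lay below 0 and the other mice above it. The subunits Mcm2 and Mcm6 did not share this pattern. Mcm2 had 0.08, -0.18 and 0.10 in mice 1, 2 and 3, and Mcm6 had -0.16, -0.09, -0.02 and -0.10 in mice 1 to 4. Cdc45, which activates the helicase, had -0.23, -0.39, 0.01 and 0.19. Mcm4 was measured in mice 1 and 4 (0.21 and -0.04), and Mcm5 (-0.25) and the loading factor gene Cdc6 (-0.06) in mouse 2 only.

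Pcna, the sliding clamp of the replicative polymerases, had log ratios of -0.26, -0.57, 1.68 and 1.12 in mice 1 to 4. Mice 1 and 2 lay below 0 and mice 3 and 4 far above it. Its mean was 0.49 ± 1.08 (SD, n = 4; limma adjusted p = 0.432), and its SD stood at the 99.4th percentile of all genes tested. Among enzymes of nucleotide supply, Tyms and Dut were also below 0 in mice 1 and 2 and above it in mice 3 and 4. Tyms, which makes thymidylate, had -0.60, -0.49, 0.10 and 0.24 (mean -0.19 ± 0.42, SD, n = 4; limma adjusted p = 0.467). Dut, which removes dUTP, had -0.55, -0.51, 0.13 and 0.23 (mean -0.17 ± 0.41, SD, n = 4; limma adjusted p = 0.495). Both spanned less than Pcna did between the lowest and the highest mouse. Rrm2, the small subunit of ribonucleotide reductase, lay below 0 in all 4 mice, at -0.32, -0.39, -0.18 and -0.03 (mean -0.23 ± 0.16, SD, n = 4; limma adjusted p = 0.125). Its partner Rrm1 had -0.55 and -0.20 in mice 2 and 3, and the thymidine kinase gene Tk1 had -0.85 and -0.21 in mice 2 and 4.

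Cdk1, the kinase that drives entry into mitosis, had the lowest mean of the 35 genes. Its log ratios were -1.35, -1.65, 0.01 and 0.02 in mice 1 to 4, with a mean of -0.74 ± 0.88 (SD, n = 4; limma adjusted p = 0.178). The mean thus rests on mice 1 and 2, since mice 3 and 4 lay at 0. The cyclin gene Ccna2 had -0.71, -0.32, -0.06 and -0.10, and Ccnb2 had -0.46, -0.52, 0.34 and -0.14. Ccna2 was below 0 in all 4 mice and Ccnb2 in 3. For Foxm1, a transcription factor of mitotic genes, the table held no value on any array, and Ccnb1 and Cks2 had no probe with their symbol.

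The spindle checkpoint delays chromosome separation until every kinetochore is attached, and the anaphase promoting complex then ends mitosis with Cdc20 and the conjugating enzyme Ube2c. Bub1b, a checkpoint kinase gene, had log ratios of -0.68, -0.58 and -0.06 in mice 1, 2 and 4. Mad2l1, a checkpoint protein that binds Cdc20, had -0.11, -0.49, 0.30 and -0.14 in mice 1 to 4. Mouse 2 was the lowest for Mad2l1, as it was for both genes that act after the checkpoint. Cdc20 had -0.35, 0.03 and 0.41 in mice 2, 3 and 4, and Ube2c had -0.39, -0.86, 0.33 and 0.16 in mice 1 to 4. Bub1 was measured in mouse 2 only (0.49), and the probe of Bub3 had no value.

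Among mitotic kinases, Aurka, which acts at the spindle poles, had log ratios of -0.53, -0.77 and -0.01 in mice 1, 2 and 4, and its activator Tpx2 had -0.73, -0.85, 0.00 and -0.11 in mice 1 to 4. Both were low in mice 1 and 2 and near 0 in the other mice. Aurkb, which corrects attachments at the centromere, had -0.16, -0.11, -0.10 and -0.02, and Plk1, which acts throughout mitosis, had 0.01, 0.03, 0.02 and 0.08. These 2 kinase genes were nearly level across mice, with an SD of 0.06 for Aurkb and 0.03 for Plk1. For Birc5, a partner of Aurkb, the table held no value.

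Among the spindle and cytokinesis genes, low values were not limited to mice 1 and 2. The median of the spindle and cytokinesis genes was -0.25, -0.22, -0.32 and -0.20 in mice 1 to 4, over 7, 7, 6 and 7 genes. That of the chromosome and kinetochore genes was -0.79, -0.79, -0.13 and -0.07, over 3, 3, 2 and 2 genes. Its values in mice 3 and 4 thus rest on fewer genes, without Cenpa in mouse 3 and without Smc2 in mouse 4. Kif23, which encodes the kinesin of centralspindlin and so the partner of Racgap1, had log ratios of -0.20, -0.41, -1.09 and -0.67 in mice 1 to 4. Its mean was -0.59 ± 0.38 (SD, n = 4; limma adjusted p = 0.0563), and mice 3 and 4 were the lowest, as they were for Racgap1. It passed limma once each array had been scaled to 1 spread (adjusted p = 0.0466), among genes with 4 values (0.0497) and with only probes measured on every array (0.0483). It did not pass without centring (0.0558), with values on at least 2 arrays (0.0621), with the random block (0.0952) or without any 1 of the mice (0.0707 to 0.153). Kif11, the motor that pushes the spindle poles apart, had 0.05, 0.09, -0.43 and -0.20, so that mice 3 and 4 were again the lower ones. Kif20a, a kinesin of the midzone, had -0.25, -0.26, -0.01 and -0.04, and Prc1, which crosslinks midzone microtubules, had -0.26, -0.09 and -0.07 in mice 1, 2 and 4. Nusap1, a microtubule-binding protein gene, lay above 0 in all 4 mice, at 0.17, 0.10, 0.31 and 0.16 (mean 0.18 ± 0.09, SD, n = 4; limma adjusted p = 0.128). Anln had no probe with its symbol.

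Mki67, the gene of the proliferation marker Ki-67, which coats mitotic chromosomes, had log ratios of -0.98, -0.79, -0.25 and -0.10 in mice 1 to 4. All 4 mice lay below 0, and the mean of -0.53 ± 0.42 (SD, n = 4) did not pass limma (adjusted p = 0.0884). Cenpa, the histone variant gene of the centromere, had -0.79, -0.93 and -0.05 in mice 1, 2 and 4, with a mean of -0.59 ± 0.47 (SD, n = 3; limma adjusted p = 0.115). Smc2, a condensin gene, had -0.43, -0.16 and 0.00 in mice 1, 2 and 3. In these chromosome genes, too, mice 1 and 2 were the lower ones. Top2a, a topoisomerase that untangles sister chromatids, had a value in mice 2 and 4 only, -0.19 and -0.03. Cenpe and Smc4 had no probe with their symbol.

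Outside both classes, Cks1b, a small protein that binds cyclin-dependent kinases, had log ratios of -1.15, -0.86, 0.18 and -0.07 in mice 1 to 4 (mean -0.48 ± 0.63, SD, n = 4; limma adjusted p = 0.220). As for Cdk1, mice 1 and 2 lay below mice 3 and 4, whereas Hmgb2 was above 0 throughout. Lmnb1, a nuclear lamina gene, had -0.28 and -0.10 in mice 1 and 3, the microtubule regulator gene Stmn1 had -0.12 in mouse 2 only, and the histone variant gene H2afz had no probe with its symbol.

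The cell cycle genes as a list had a wider spread between mice than the table as a whole. The median SD over the 35 genes was 0.32, against 0.17 over all genes. An SD over 0.4, a limit chosen after the values were seen, was found for 12 of the 35 genes and for 11.7% of all genes. It was found for 6 of the 12 G1/S genes and 5 of the 21 G2/M genes. After Pcna, the largest SDs were those of Cdk1, Mcm7, Mcm3, Ccnd1 and Cks1b, from 0.88 down to 0.63, at or above the 96.4th percentile of all genes. Plk1, at 0.03, stood at the 1.8th percentile. The depth and the signal of the spots are not part of the table, so it was not tested whether dim spots are behind the smallest values.

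**Figure D3:**
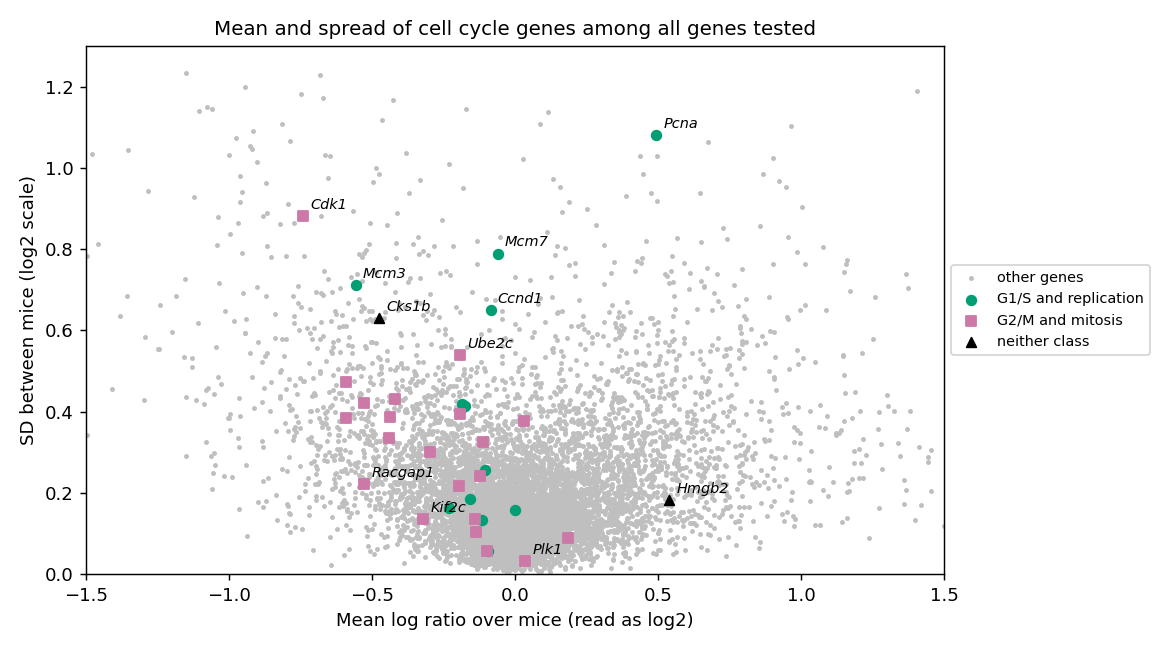
Mean log ratio over mice (horizontal axis, read as log2) and SD between mice (vertical axis, log2 scale) for the 35 cell cycle genes (coloured) and all other genes tested (grey), of which 52 lie outside the axes. Pcna, Cdk1, Mcm7, Mcm3 and Ccnd1 stand high in the plot, with SDs from 0.65 to 1.08, while Hmgb2 has a mean of 0.54 and an SD of 0.18.

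Further cell cycle genes were read from a list of 159, of which 89 were measured. Of these, 7 passed limma above 0 and 7 below, 15.7% in all against 12.5% of all genes, and the median of the means was -0.01. The calls lay on both sides of 0 within the replication genes (2 above, 1 below, of 25) and the kinetochore and spindle genes (1 above, 3 below, of 29). Cohesin and condensin genes had 2 above and 0 below of 7, and cyclins and their kinases had 0 above and 2 below of 9. Without mouse 1, 2, 3 or 4, 3 of 67, 6 of 68, 4 of 77 and 3 of 72 genes of the list passed. The shares of all genes were 4.48%, 8.42%, 3.95% and 4.74%. With the random block 4 of 89 passed (Cdkn1a, Orc6, Pola2 and Rad21), against 4.79% of all genes. In each of these fits the share of the list was near that of all genes.

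Below 0, Cdkn1a, the p53 target that inhibits cyclin-dependent kinases, had log ratios of -1.11, -0.98, -0.80 and -0.56 in mice 1 to 4. Its mean was -0.87 ± 0.24 (SD, n = 4; limma adjusted p = 0.0121), and it passed whichever mouse was left out. Ccng1, a cyclin gene that is also a p53 target, had -2.07, -2.06, -1.37 and -0.34 (mean -1.46 ± 0.81, SD, n = 4; limma adjusted p = 0.0354). Melk, a kinase gene of dividing cells, had -0.95, -1.20, -0.62 and -0.30 (mean -0.77 ± 0.39, SD, n = 4; limma adjusted p = 0.0333). In all 3 genes, mouse 4 was closest to 0 and mice 1 and 2 were farthest from it. Ndc80, which anchors microtubules at the kinetochore, had a mean of -0.42 ± 0.20, Bora, an activator of Aurora A, of -0.37 ± 0.08 and the germ-line cyclin gene Ccna1 of -0.38 ± 0.16 (SD, n = 4), each below 0 in all 4 mice. Rpa1, for a protein that coats single-stranded DNA, had a mean of -0.40 ± 0.19 (SD, n = 4).

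Above 0, Anapc5, a subunit of the anaphase promoting complex, had log ratios of 1.17, 0.22, 1.29 and 1.35 in mice 1 to 4, with a mean of 1.01 ± 0.53 (SD, n = 4; limma adjusted p = 0.0333). Pola2, a subunit of DNA polymerase alpha, had 0.65, 0.40, 0.95 and 0.94 (mean 0.74 ± 0.27, SD, n = 4; limma adjusted p = 0.0187). Both were lowest in mouse 2. Rad21, the cleavable subunit of cohesin, had 0.53, 0.48, 0.91 and 0.66 (mean 0.65 ± 0.19, SD, n = 4; limma adjusted p = 0.0155). Orc6, a subunit of the origin recognition complex, had 0.45, 0.56, 0.47 and 0.45 (mean 0.48 ± 0.05, SD, n = 4; limma adjusted p = 0.0131), nearly the same in every mouse. The transcription factor gene E2f1 had a mean of 0.52 ± 0.19 (SD, n = 3), without a value in mouse 1. The centromere gene Cenpc1 had a mean of 0.43 ± 0.20 and the condensin gene Ncapd2 of 0.38 ± 0.18 (SD, n = 4). Rpa1 and Ncapd2 have the largest p of the 14 and fall outside the rule for named genes; they were added after their values were seen.

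**Figure D4:**
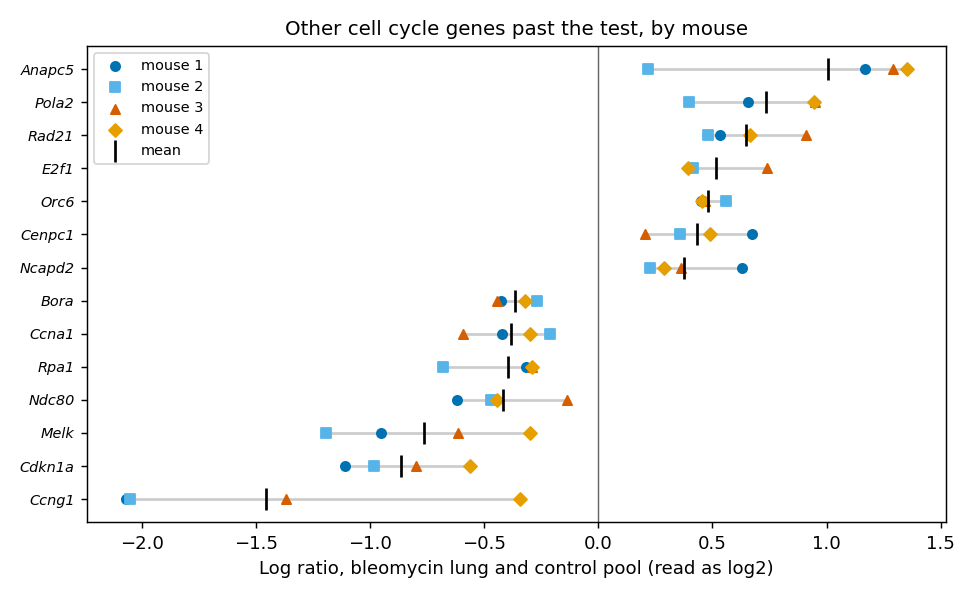
Log ratio (horizontal axis, read as log2) in mice 1 to 4 (coloured symbols) of the 14 further cell cycle genes past limma's test, with the mean (black bar) and the range (grey line). The 7 genes from Anapc5 to Ncapd2 lie above 0 in every mouse measured, and the 7 genes from Bora to Ccng1 below it.

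The 4 arrays had a value for 12136, 11373, 9427 and 10282 of 17280 spots in mice 1 to 4, and for 36, 43, 32 and 35 of the cell cycle genes. Of 8 listed genes of alveolar type II cells, the lung cells that make surfactant, 6 were measured, among them Sftpc and Sftpa1. A ratio shows neither the level of a gene nor its absence. Of the 35 measured genes, 25 had a value in all 4 mice, and 1 (Smc2) had several probes. The number of arrays limits the precision of every mean.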

How the data were processed

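Lung RNA of 4 bleomycin-treated A/J mice was measured on 2-colour arrays against 1 pool from control lungs, per the labels. The authors deposited 1 log ratio per spot and array, read here as log2. The labels and the table state neither its base and direction nor the dyes, scanner or normalization. The lowest value was -6.1, and array medians before centring were -0.009, 0.015, 0.029 and 0.019.

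Spots were named through the platform annotation, which can be old: 14723 of 17280 spots were listed, 14722 with 1 symbol and 1 with several, and 14445 matched a RefSeq gene ID of GRCm38.p6, which changed 0 symbols. Arrays were centred on their medians and probes of a symbol averaged. Genes with at least 3 values (8384) were tested in 1 fit with limma 3.58.1 in R 4.3.3 (intercept, eBayes, two-sided, Benjamini-Hochberg, threshold 0.05), after the code had been tested on simulated data. A ratio against 1 pool leaves out the spread between control mice.

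Genes given with their values were those past the test, the 5 with the largest absolute mean in each class, Mki67, Top2a, Pcna, Cdk1 and Ccnd1, and, of the further cell cycle genes, the 12 called with the smallest p; the remaining cell cycle genes are given for completeness. The genes, classes, marker lists and alternatives were chosen with earlier results of these data known. Alternatives were no centring, arrays scaled to 1 spread, the median of probes, other minimum numbers of values, only probes measured on every array, leaving out each mouse, a random block, and other class summaries.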

Additional observations from a re-analysis of the deposited data

How the results depend on the processing

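Of all genes, 1048 passed limma; 277 to 537 did so with 1 mouse left out, of which 274 to 458 were among the 1048, and 402 with mice 1 and 2, and mice 3 and 4, as a random block, all among the 1048. The cell cycle genes called numbered 3, and 0 to 2 with a mouse left out and 0 with the block. For G2/M genes the count of 2 became 1 without centring and 1 with values on at least 2 arrays, each time through the loss of Kif2c (limma adjusted p = 0.0600 and 0.0513), 0 to 1 with a mouse left out and 0 with the block. The 14 further cell cycle genes became 3 to 6 with a mouse left out and 4 with the block, when 3.95% to 8.42% and 4.79% of all genes passed. Scaling the arrays, the median of probes, values on all 4 arrays and probes measured on every array kept each of these counts within 1.5 times, and no named gene past the test changed its side of 0 in any of the alternatives run. For G1/S genes 0 passed limma in each setting, with 0 or 1 at an unadjusted p under 0.05. The median of the cell cycle genes ran from -0.28 to -0.09 and the G1/S minus G2/M difference from 0.04 to 0.16 with a mouse left out. The cause of these changes was not tested, except that 3 arrays give fewer degrees of freedom. No paired analysis was possible because the arrays form 1 group against 1 pool, so that no 2 groups share replicate numbers.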
